A study of Mus musculus with 56 samples.

Results

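Cytosolic ribosomal protein genes encode the protein part of the ribosome that translates messenger RNA outside the mitochondria. They were chosen here by symbol and by level: a symbol of the Rpl or Rps series with a subunit number, or Rplp0, Rplp1, Rplp2 or Rpsa, with a pooled mean of normalized counts that reached 50, without Rps6k kinases and without names that hold -ps. Of 50692 genes that all 10 deposited tables list, 89 had such a symbol, and 80 reached the minimum in at least 1 table. The minimum was reached in every table by 78 of them.

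The cells came from C57BL6 female mice that carried MC38 tumors, a mouse colon carcinoma line, in the rectum. Short course radiotherapy (SCRT) was given as 5 daily fractions of 5 Gy on days 9 to 13, and cells were sorted from the tumors on day 14 for bulk RNA-seq. The labels give 5 untreated and 10 SCRT libraries each for cancer-associated fibroblasts (CAFs, gated as CD45-, CD31-, podoplanin+, PDGFRa+ and Ly6C+), for tumor cells (gated as GFP+) and for CD8+ T cells (gated as CD45+ and CD8+). Another 11 libraries of CD8+ T cells belonged to mice that received SCRT plus IgG (5) or SCRT plus anti-IFNAR (6), an antibody that blocks the type I interferon receptor. These arm sizes are those of the labels, and the study gives them the other way round, which does not touch the mean pooled over both arms. All samples described here came from MC38 tumors, and no sorted cells of tumor-free mice were analysed here.

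Each deposited table gives a mean normalized count per gene, pooled by the authors over all libraries of a joint normalization, whatever their cell type or treatment. These means fell into 3 sets. The 6 CAF and tumor cell tables shared the same means (30 libraries), the 3 tables of untreated and SCRT CD8+ T cells shared another (15 libraries), and the antibody table stood alone (11 libraries). A pooled mean has no spread between replicates. Untreated and SCRT samples are therefore not separated below, nor are IgG and anti-IFNAR, nor CAFs and tumor cells, and no test was made. The study divides its SCRT tumors into responders and nonresponders, and the pooled means mix these as well. Since the sets were normalized separately, levels are compared within a set, and between sets by shares and orders. Where means or levels of several sets stand in 1 sentence, each is on the scale of its own set.

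Ribosomal proteins assemble with ribosomal RNA into a large (60S) subunit, which forms the peptide bond, and a small (40S) subunit, which reads the messenger RNA. The proteins are needed in about equal numbers, and their messenger RNAs belong to the TOP class, which starts with a C followed by a tract of pyrimidines (C and T in the DNA) that ties their translation to growth signals through mTOR. Several have a paralog of lower or tissue-limited expression, and the genome holds many processed pseudogenes, which are copies made from their mature messenger RNA.

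The defining markers fitted the labelled cells in part. The 5 CD8+ T cell markers (Cd8a, Cd8b1, Cd3e, Cd3d and Ptprc) had means of 19871 to 54999 in the CD8+ T cell set and of 2177 to 12512 in the antibody set, against 1.06 to 50.4 in the CAF and tumor cell set. The 6 CAF markers (Pdpn, Pdgfra, Ly6c1, Col1a1, Col1a2 and Dcn) had means of 1924 to 46777 in the CAF and tumor cell set. In the same set the epithelial genes Krt8 (1544), Epcam (558) and Krt18 (129) were lower than any CAF marker, and GFP, which defined the tumor cell gate, was not analysed here. The CAF markers had means of 97.7 to 1078 in the CD8+ T cell set and of 10.9 to 1590 in the antibody set. Of 4 macrophage markers, 4 were above the minimum of 50 in each of the 3 sets, and their sum was 0.162% of all counts in the CD8+ T cell set, 0.156% in the antibody set and 0.00677% in the CAF and tumor cell set, led by Lyz2 with means of 41041, 12107 and 1402. The endothelial markers Pecam1 and Cdh5 had means of 1782 and 69.0 in the CD8+ T cell set, of 626 and 17.1 in the antibody set and of 28.2 and 6.61 in the CAF and tumor cell set. Their part in the results below was not tested.

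The ribosomal protein genes took 3.17% of the summed mean normalized counts in the CAF and tumor cell set (79 genes), 2.91% in the CD8+ T cell set (80 genes) and 4.23% in the antibody set (78 genes). The large subunit had 47 of these genes in each set, and the small subunit 32, 33 and 31, in that order. Of these counts, the large subunit held 58.7%, 58.9% and 56.7%. Mitochondrially encoded genes took 1.20%, 0.601% and 12.8% of the counts in the same order, and without them the share of the ribosomal protein genes in the antibody set was 4.85%. No single ribosomal protein gene led a set, and the genes with the highest means were Col3a1, Actb and mt-Rnr2.

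Levels between genes are given per residue, which is the mean normalized count divided by the number of amino acids the gene encodes, since a longer messenger RNA gives more fragments. The median level per residue of the large subunit genes was 51.4 and that of the small subunit genes 64.6 in the CAF and tumor cell set. In the CD8+ T cell set these medians were 44.8 and 64.2, and in the antibody set 26.8 and 39.5. The large subunit median was thus lower than the small subunit median in all 3 sets, with ratios of 0.796, 0.698 and 0.677. Between the lower and upper quartile, the large subunit genes ran from 31.1 to 79.8 in the CAF and tumor cell set, and that of the small subunit genes from 50.5 to 86.4, so the ranges overlapped. The ranges also overlapped in the CD8+ T cell set (28.8 to 76.7 and 48.1 to 86.7) and in the antibody set (16.4 to 39.2 and 25.5 to 49.3). The difference was not equally large by every measure. In the CAF and tumor cell set it was nearly absent without genes that share much of their sequence. When genes with more than 50% of their sequence windows shared with another transcript (described below) were left out, the ratios were 0.999, 0.843 and 0.900.

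**Figure D1:**
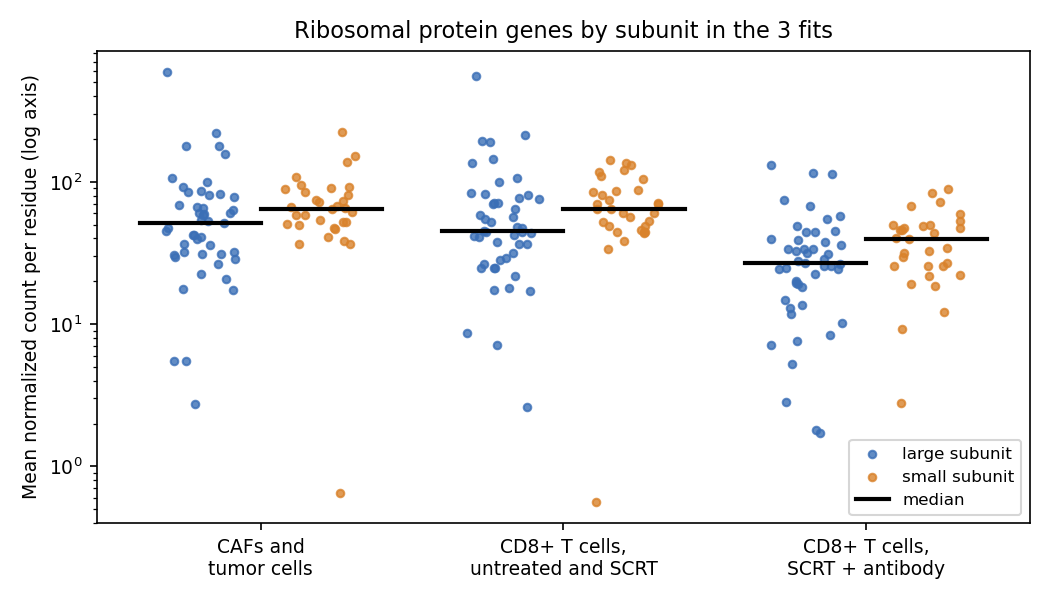
Mean normalized count per residue (log axis) of each ribosomal protein gene with a coding length (all but Rps4l) in the 3 separately normalized sets, with large subunit genes in blue, small subunit genes in orange and black lines at the medians. The small subunit median lies above that of the large subunit in each set, the points overlap widely, and 1 small subunit gene, Rps10, lies far below the other plotted points of its subunit in the sets where it passed the minimum.

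Although the encoded proteins are needed in similar numbers, the levels per residue were spread over more than 1 order of magnitude. Of the 79 genes with a coding length in the CAF and tumor cell set, 61 (77.2%) lay within 2-fold of the median of 58.3, as did 55 of 79 (69.6%) in the CD8+ T cell set and 54 of 78 (69.2%) in the antibody set. The SD of the log2 level was 1.34, 1.34 and 1.26.

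The highest level per residue belonged to Rpl41, which encodes a peptide of only 25 residues, with 589 in the CAF and tumor cell set, 556 in the CD8+ T cell set and 130 in the antibody set. So short a coding part makes its level per residue larger than a level per transcript would be. Next among large subunit genes of the CAF and tumor cell set was Rpl32 at 221, and in the CD8+ T cell set Rpl32 at 213 and Rpl13 at 193 followed. In the antibody set the P stalk genes Rplp1 (116) and Rplp2 (114) followed Rpl41. Among small subunit genes, Rps14, which lies near the mRNA exit, had the highest level in the CAF and tumor cell set (223) and in the CD8+ T cell set (142), followed by Rps29 at 152 and 135. Rps18 (138) came next in the CAF and tumor cell set and Rps19 (132) in the CD8+ T cell set. Rps29 encodes only 56 residues. Per base of the transcript it lay below Rps18 in these sets, at 21.8 against 37.5 and 19.4 against 28.6. The antibody set had another order per residue, with Rpsa (89.1), Rps24 (82.9) and Rps23 (72.2) at the top.

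At the low end of the large subunit, Rpl13a had 2.74, 2.63 and 1.70 per residue in the CAF and tumor cell, CD8+ T cell and antibody sets. Rpl23a, at the rim of the peptide exit tunnel, had 5.51, 7.10 and 7.64, and the paralog Rpl22l1 had 5.52, 8.70 and 1.81. Rpl7l1 was among the 3 lowest of the antibody set, at 2.83. The lowest small subunit gene was Rps10, with 0.645 in the CAF and tumor cell set and 0.565 in the CD8+ T cell set. Above it came Rps4x (36.4) and Rps16 (36.6) in the first set and Rps12 (33.7) and Rps21 (38.2) in the second. Rps4l, a small subunit gene of the CD8+ T cell set with a mean of 331 beside 93.2 for Rps10, had no coding length and so no level per residue. In the antibody set Rps27l (2.77) and Rps25 (9.23) were the lowest.

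The minimum of 50 fell into a wide gap. In the CAF and tumor cell set, Rpl6l (28.8), Rpl24 (13.6) and Rpl32l (13.4) were the highest means below it, and Rps10 (106), Rpl13a (556) and Rpl22l1 (674) the lowest above it. In the CD8+ T cell set, Rpl6l (25.4), Rpl39l (17.1) and Rps3a2 (15.3) lay below, and Rps10 (93.2), Rps4l (331) and Rpl13a (534) above. In the antibody set, Rps4l (39.4), Rpl6l (37.3) and Rps10 (28.6) lay below, and Rpl22l1 (220), Rps27l (233) and Rpl13a (346) above. Rps10 therefore left the antibody set, and Rps4l entered only the CD8+ T cell set. Rpl24, which encodes a standard component of the large subunit, stayed out of every set with means of 13.6, 14.0 and 5.50. It shared 80.1% of its sequence windows with other transcripts (described below), and the part of this in its means was not tested. Rpl10l and Rps12l1 were listed at 0 in all tables.

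By place in the ribosome, the P stalk and its base, which recruit the elongation factors, had a median level per residue of 75.0 over 4 genes in the CAF and tumor cell set, 84.9 in the CD8+ T cell set and 86.1 in the antibody set. Rplp0 led them in the first and second of these sets (156 and 145) and was the lowest in the antibody set (54.9), where Rplp1 led. The 5S RNP genes Rpl5 and Rpl11, whose free proteins bind the p53 inhibitor Mdm2, were nearly equal in the CAF and tumor cell set (31.1 and 30.8), while Rpl5 was lower than Rpl11 in the CD8+ T cell set (17.4 and 44.8) and in the antibody set (18.1 and 27.9). The 8 genes of the peptide exit tunnel and its rim had medians of 47.9, 41.5 and 27.6, with Rpl23a the lowest in each set. Among small subunit genes, the 3 at the mRNA entry (Rps2, Rps3 and Rps9) had medians of 91.8, 110 and 45.7, and the 5 at the mRNA exit medians of 73.0, 75.0 and 31.4.

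The order of the genes was nearest between the CAF and tumor cell set and the CD8+ T cell set. Over the 78 genes above the minimum in every set, Spearman's correlation of the means was 0.881 between these sets, 0.649 between the antibody set and the CAF and tumor cell set, and 0.666 between the antibody set and the CD8+ T cell set. The genes share their libraries and normalization within a set, so these values describe the sets and were not tested. For single genes, the mean was taken per 10000 counts of the 78 genes. This share differed by less than 2-fold between the CD8+ T cell set and the CAF and tumor cell set for 77 of 78 genes (98.7%), and the only exception was Rps27a. Between the antibody set and the CAF and tumor cell set 54 of 78 genes (69.2%) stayed within 2-fold, and between the antibody set and the CD8+ T cell set 49 of 78 (62.8%).

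The share of Rps27a, which encodes a ubiquitin fused to a ribosomal protein, was 77.1 per 10000 in the CD8+ T cell set and 169 in the CAF and tumor cell set, a ratio of 0.456. Gm8430, which matches 55.9% of the sequence windows of Rps27a (described below), was listed only in the CD8+ T cell set, with a mean of 20.3. Its part in this ratio was not tested. Also lower in the CD8+ T cell set were Rps27l (ratio 0.525), Rpl5 (0.548), Rpl30 (0.580) and Rps28 (0.590). At the other end, Rps9 had 237 per 10000 in the CD8+ T cell set and 135 in the CAF and tumor cell set, a ratio of 1.75. Rpl4, which lines the exit tunnel, had 500 and 288 (ratio 1.73), and Rpl37a, Rpl14 and Rps19 had ratios of 1.63, 1.59 and 1.59.

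The antibody set differed most at Rps27l, a paralog of Rps27 known as a p53 target, with 5.11 per 10000 against 86.9 in the CAF and tumor cell set and 45.7 in the CD8+ T cell set. Its share was 17.0-fold and 8.93-fold lower, in that order. Rpl27 was 5.03-fold and 4.05-fold lower and Rpl15 4.20-fold and 3.53-fold lower. Against the CAF and tumor cell set, Rps14 (4.32-fold) and Rps25 (3.80-fold) were also among the 5 lowest, and against the CD8+ T cell set Rpl7l1 (3.20-fold). Rplp2, an acidic P stalk protein, had 289 per 10000 in the antibody set, 71.0 in the CAF and tumor cell set and 88.9 in the CD8+ T cell set, ratios of 4.06 and 3.25. Rpl27a (2.91), Rpl23a (2.67), Rpsa (2.63) and Rplp1 (2.56) followed against the CAF and tumor cell set, and Rps24 (2.70), Rpl22 (2.58), Rpl12 (2.56) and Rps12 (2.55) against the CD8+ T cell set. Beside these differences stood those in mitochondrial counts given above and in the 5 CD8+ T cell markers, which summed to 0.612% of the counts in the CD8+ T cell set and 0.310% in the antibody set. The antibody set held no untreated mice and was normalized apart, so treatment, experiment and normalization cannot be told apart in it. The gene list differed too, with 55453 genes in the CD8+ T cell set and 53819 in each of the other sets. This cannot be told apart either where the CD8+ T cell set is compared.

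**Figure D2:**
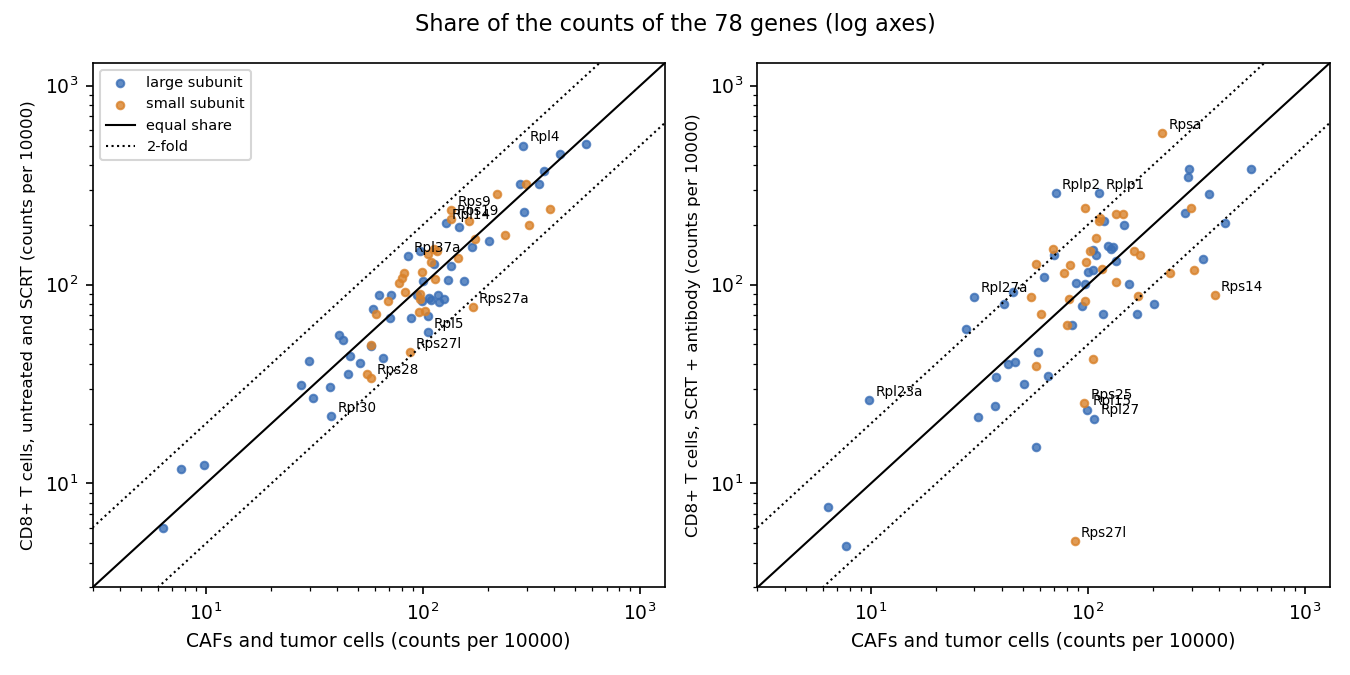
Mean normalized counts per 10000 counts of the 78 genes above the minimum in every set (log axes), with the CAF and tumor cell set on the x axis and, on the y axis, the CD8+ T cell set (left) or the antibody set (right). Points are genes, the solid line marks equal shares and the dotted lines 2-fold. At the left 77 of 78 genes lie between the dotted lines, at the right 54 of 78, with Rps27l farthest below and Rplp2 farthest above. The named genes are those with the 5 largest and 5 smallest ratios.

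Paralogs ranged from nearly equal to their parent gene per residue to listed at 0. Of 12 symbols taken as paralogs by name, 3 were above the minimum in every set. Rps27l stood at 106% of the level per residue of Rps27 in the CAF and tumor cell set, at 40.1% in the CD8+ T cell set and at 6.05% in the antibody set. Rpl7l1 stood at 43.5%, 27.7% and 8.38% of Rpl7, and Rpl22l1 at 17.8%, 35.0% and 5.55% of Rpl22, a protein with a known part in T cell development. All 3 were thus lowest relative to their parent in the antibody set, whereas the CD8+ T cell set was above the CAF and tumor cell set only for Rpl22l1. Rps27l and Rps27 each encode 84 residues, but their transcripts have 499 and 345 bases. Per base of the transcript, their levels were 15.3 and 20.8 in the CAF and tumor cell set. Rps27 shared 98.4% of its sequence windows with other transcripts (described below) and Rps27l 0%. The part of this in their ratio was not tested. The fourth paralog above the minimum, Rps4l, had a mean of 331 in the CD8+ T cell set against 11673 for Rps4x, or 2.76% of the pair, and means of 6.25 and 39.4 in the CAF and tumor cell set and the antibody set. Rpl3l, a paralog known from striated muscle, had means of 4.41, 8.60 and 3.78 beside 24463, 28703 and 10402 for Rpl3. Rpl39l, known from the testis, was listed at 0 in the CAF and tumor cell set and had means of 17.1 in the CD8+ T cell set and 0.541 in the antibody set. The remaining Rpl6l, Rpl32l, Rps3a2 and Rps3a3 stayed under 1% of their pair in each set, with Rpl6l the highest at 0.622% in the antibody set. These symbols, Rps4l and Rps12l1 had no protein-coding transcript in the annotation used here (GENCODE M21), where Rps3a2 is a processed pseudogene.

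**Figure D3:**
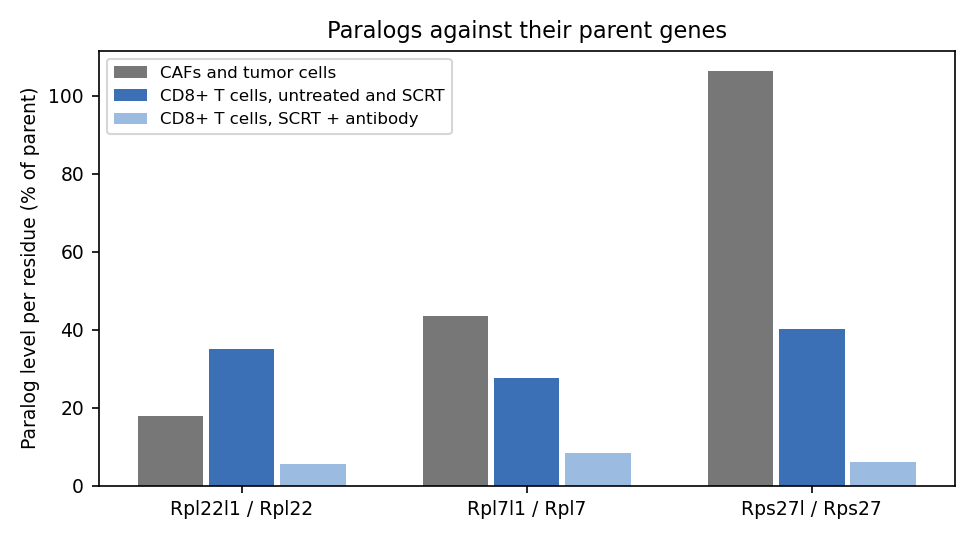
Level per residue of each of the 3 paralogs above the minimum in every set, as a percent of the level of its parent gene (bars start at 0), in the CAF and tumor cell set (grey), the CD8+ T cell set (dark blue) and the antibody set (light blue). Each bar is 1 ratio of pooled means, with no error. Rps27l reached 106% of Rps27 in the CAF and tumor cell set and 6.05% in the antibody set. Per base of the transcript, the levels of Rps27l and Rps27 in the CAF and tumor cell set were 15.3 and 20.8.

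Reads of ribosomal protein genes can match pseudogenes, so each gene's reference transcript (GENCODE M21, GRCm38) was cut into all windows of 100 bases, the read length, and each window was looked for in the transcripts of all other genes. The median gene of the CAF and tumor cell set shared 45.0% of its windows, and 6 genes shared none. Among these were Rpl22, Rpl32, Rps21, Rps3 and Rps27l. At the other end Rps27 shared 98.4% of its windows, all of these with Rps27rt. The means of Rps27rt were 56.6 in the CAF and tumor cell set, 77.3 in the CD8+ T cell set and 2.74 in the antibody set. Genes with more than 50% shared windows had a median level per residue of 42.5 in the CAF and tumor cell set (35 genes) against 64.6 in the remaining 44 genes, and the same medians were 44.1 and 69.8 in the CD8+ T cell set and 24.3 and 38.7 in the antibody set. Spearman's correlation of the level with the shared percent was -0.353, -0.390 and -0.358. Per base of the whole transcript the correlation was weaker, at -0.156, -0.167 and -0.144.

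**Figure D4:**
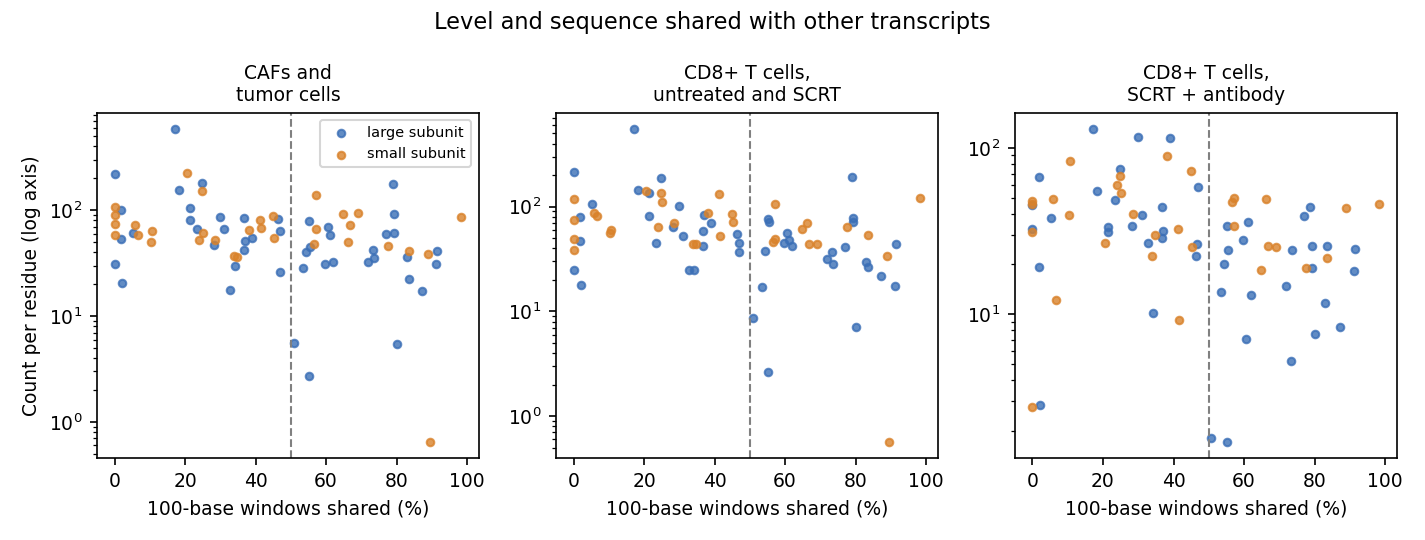
Mean normalized count per residue (log axis) against the percent of 100-base windows of the reference transcript that also occur in the transcript of another gene, for the 3 sets, with large subunit genes in blue and small subunit genes in orange. The dashed line marks 50%. Medians to the right of the line are 42.5, 44.1 and 24.3, and those to the left 64.6, 69.8 and 38.7.

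Shared sequence was common among genes with low means, as it was among all the genes. Rps10 shared 89.5% of its windows with the annotated gene RPS10-NUDT3. Rpl24 shared 80.1% of its windows with other genes and 66.8% with Gm28037 alone, and Rpl13a shared 55.2% with Gm45713. Gm28037 and Gm45713 were listed at 0 in all 3 sets, and RPS10-NUDT3 was not listed. RPS10-NUDT3 and Gm45713 are annotated as protein coding and Gm28037 as a processed transcript, so none of these is annotated as a pseudogene. Rpl23a shared 80.0%, while Rpl7l1 shared 2.23% and Rps27l, the lowest small subunit gene of the antibody set, 0%. Rpl10 shared 91.6% and had 41.2 per residue in the CAF and tumor cell set, where Rps27 had 85.5. How the authors assigned reads with several matches is not given in the sources used here, and the part of shared sequence in these levels was not tested. Rows with -ps names could be summed by symbol. The 322 such rows summed to 0.344% of the ribosomal protein gene counts in the CAF and tumor cell set, with 305 rows and 0.306% in the CD8+ T cell set and 322 rows and 0.282% in the antibody set. Copies under other names were not in this sum, such as Gm15500, which shares windows with Rpl5 and had a mean of 216 in the CAF and tumor cell set. Gm10076, annotated as a long noncoding RNA, matched 17.2% of the windows of Rpl41 and was not in the sum either. Its means were 1429 in the CAF and tumor cell set, 1816 in the CD8+ T cell set and 193 in the antibody set. Those of Rpl41 were 14731, 13893 and 3258.

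The start sites of the genes are shown because the TOP tract, the known shared feature of the family, lies there. The RefSeq promoter table (GRCm38.p6) held 59 of the 80 genes. Each line below gives 30 bases before and 20 from the annotated start, with the longest run of C and T near it in capitals. The first 3 genes had the longest runs of the genes considered for printing. Rplp0 had the highest mean of the ribosomal protein genes in the CAF and tumor cell set. Rpl41 had the highest level per residue in each set, and the rest are paralogs and parents:
Rpl7a: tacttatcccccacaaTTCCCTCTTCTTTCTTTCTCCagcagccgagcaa
Rpl27a: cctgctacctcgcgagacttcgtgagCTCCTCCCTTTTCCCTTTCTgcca
Rpl35: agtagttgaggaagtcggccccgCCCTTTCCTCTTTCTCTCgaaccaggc
Rplp0: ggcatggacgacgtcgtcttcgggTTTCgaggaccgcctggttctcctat
Rpl41: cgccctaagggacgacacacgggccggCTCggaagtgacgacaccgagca
Rps27: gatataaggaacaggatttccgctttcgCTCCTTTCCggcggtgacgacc
Rps27l: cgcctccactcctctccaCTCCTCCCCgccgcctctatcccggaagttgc
Rpl22: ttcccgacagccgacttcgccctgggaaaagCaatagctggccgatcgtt
Rpl22l1: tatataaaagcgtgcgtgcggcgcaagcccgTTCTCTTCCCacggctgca
Rpl7l1: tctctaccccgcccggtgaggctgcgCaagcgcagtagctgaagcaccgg

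These windows lie at chr2:26910777-26910826 (Rpl7a, plus strand), chr7:109519165-109519214 (Rpl27a, plus), chr2:39005112-39005161 (Rpl35, minus), chr5:115559437-115559486 (Rplp0, plus) and chr10:128549149-128549198 (Rpl41, minus). Those of the paralogs and parents lie at chr3:90213629-90213678 (Rps27, minus), chr9:66946056-66946105 (Rps27l, plus), chr4:152325696-152325745 (Rpl22, plus), chr3:28805478-28805527 (Rpl22l1, plus) and chr17:46782637-46782686 (Rpl7l1, minus). Rpl7a had a run of 21 pyrimidines, Rpl27a of 20 and Rpl35 of 18. Rps27 and Rps27l each had a run of 9, Rpl22l1 one of 10 and its parent Rpl22 one of 1. Counted from the start, the Rps27 run began at base -2 and ran past the start. The Rps27l run began at base -12 and ended before the start. A short run says only that these letters are not beside the start that the table lists first.

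A run of at least 8 pyrimidines that touched the 5 bases on either side of the start was found in 21 of the 59 genes (35.6%), against 9.63% of all 27025 genes of the table. Runs that ended before the start, such as that of Rps27l, were counted too. The base at the start was a C in 35.6% of the ribosomal protein genes and in 16.2% of all genes. Short pyrimidine motifs were searched within 20 bases of the start, on both strands. On the gene's strand CTTTC was found in 28.8% of the ribosomal protein genes and in 5.38% of all genes, and on the opposite strand in 5.08% and 4.70%. The share with CTTCC was 25.4% against 8.97% of all genes on the gene's strand and 20.3% against 9.77% on the opposite strand, so it was above that of all genes on both. For the motif CTTTT it was 10.2% against 4.19%, and 1.69% against 3.92% on the opposite strand. At least 1 of these motifs, which can overlap, was held by 50.8% on the gene's strand and by 25.4% on the opposite strand, while 17.2% of all genes held one on either strand searched alone. A run was present in 34.3% of 35 large subunit genes and in 37.5% of 24 small subunit genes. Between the length of the run and the level per residue, Spearman's correlation was -0.118, -0.0858 and -0.106 in the 3 sets, over 59, 59 and 58 genes.

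Genes outside the ribosome that share the TOP class or take part in translation had lower levels. The list of 17 such genes held elongation factors (Eef1a1, Eef2), the initiation factor subunits Eif3e, Eif3f and Eif3h, Pabpc1 and Tpt1 among others, and its median level per residue was 25.9 in the CAF and tumor cell set, 22.6 in the CD8+ T cell set and 10.1 in the antibody set. The median of the ribosomal protein genes was 2.25, 2.42 and 3.10 times higher. Eef1a1, which brings aminoacyl-tRNA to the ribosome, was the highest in the first and second of these sets (128 and 226), and Tpt1 in the antibody set (152).

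The list of 20 ribosome assembly genes, which includes nucleolar proteins such as Ncl and Fbl and subunits of RNA polymerase I, had medians of 5.71, 5.97 and 1.28 per residue. The ribosomal protein genes stood 10.2, 9.12 and 24.4 times higher, so the distance was widest in the antibody set. All 20 assembly genes were above the mean of 50 in each set. Ncl had the highest mean of the list in each set and Wdr12 the lowest, with 19991 and 1277 in the CAF and tumor cell set.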

How the data were processed

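RNA was preamplified from 1 ng of total RNA and about 25 M single-end reads of 100 nt per sample were sequenced, per the labels. The submitters' processing notes name fastp 0.20.1, STAR 2.7.6a, DESeq2 1.28.1, R 4.0.2 and the mm39 genome, while the counting tool and gene annotation are not given in the sources used here. The signal used is the mean normalized count that the authors deposited, in which read counts, scaled by size factors, were averaged across the libraries normalized together (a pooled value, with no error and no depth per library). The 10 tables also hold the authors' log2 fold changes, Wald statistics, p-values and adjusted p-values, which were not used here. No comparison between treatments was therefore made, and no sign had to be turned.

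With Python 3.11.15, pandas 2.3.3 and numpy 2.4.6, sums, shares, medians and Spearman correlations were computed over genes, and figures were drawn with matplotlib 3.10.9. Coding lengths and shared windows came from 1 transcript per gene of GENCODE M21 (APPRIS principal, then CCDS, then the shortest), a rule whose last step was changed after long transcripts had been seen in an earlier run. Long transcripts remained, such as that of Rps20 with 3706 bases for 119 residues. Rps20 shared 5.91% of its windows and had 2.33 per base against 72.5 per residue in the CAF and tumor cell set. The part of such lengths in the shared percents and the levels per base was not tested. Coding lengths replaced the protein lengths that had been planned. The window search, the pyrimidine run and the subunit ratio were checked on simulated data. Of the 89 symbols, 83 had a coding transcript. The symbols of the CD8+ T cell tables differed from those of the others, with 4761 found only there and 3127 absent.

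Genes named were the 3 highest and 3 lowest per residue of each subunit in each set, the 5 largest and 5 smallest ratios of shares for each pair of sets, all paralogs, the 3 nearest to the minimum on each side, and the lists, apart from a few genes that are not reported here. The genes, lists, roles, motifs and later alternatives were chosen with earlier results of these data known.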

Additional observations from a re-analysis of the deposited data

How the results depend on the processing

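The values in this paragraph are given in the order CAF and tumor cell set, CD8+ T cell set, antibody set. The number of genes moved by less than 1.5 times under a minimum of 10, a minimum of 100 and no minimum. The percent share of the ribosomal protein genes was 3.21, 2.92 and 4.85 without mitochondrially encoded genes, 3.18, 2.92 and 4.28 over genes with a mean of at least 50, 3.18, 2.92 and 4.24 with -ps rows added, 3.12, 2.88 and 4.22 without paralogs and 3.33, 3.06 and 5.67 without the 10 highest genes. The large over small subunit ratio stayed below 1 in all alternatives run: 0.952, 0.785 and 0.841 with no length scaling, 0.765, 0.697 and 0.727 at a minimum of 10, 0.796, 0.696 and 0.677 at 100, 0.806, 0.801 and 0.716 from means of log2 levels, 0.834, 0.736 and 0.701 without paralogs, 0.798, 0.694 and 0.678 with -ps counts added, 0.796, 0.714 and 0.742 per base of the transcript and 0.999, 0.843 and 0.900 without genes sharing over 50% of windows. Leaving out genes that share over 50% of windows left nearly no difference in the CAF and tumor cell set. The cause of these shifts was not tested.

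Spearman's correlation between sets, in the order CD8+ T cell with CAF and tumor cell, antibody with CAF and tumor cell, antibody with CD8+ T cell, became 0.931, 0.678 and 0.732 as Pearson's r on log2 means, 0.822, 0.508 and 0.586 per residue, 0.874, 0.631 and 0.634 without paralogs and 0.905, 0.592 and 0.637 without genes sharing over 50% of windows, and did not move at a minimum of 100. The alternatives without the 10 highest genes, per base of the transcript and without genes sharing windows were chosen after seeing the data. No paired analysis was possible because each table gives 1 mean pooled over libraries, and for the same reason no library could be left out. The depth of single libraries is unknown, so no interval was given, and a gene listed at 0 sets no limit on its level.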
